A study of Mus musculus with 10 samples.

Results

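The Rab genes are described here in the dentate gyrus of mice that received Sox11 or green fluorescent protein (GFP) from a virus. The members were chosen by name and level: protein-coding genes whose symbol begins with Rab and a digit, whose normalized counts averaged at least 10 across the 10 libraries. This selected 65 of the 17007 genes tested, and the measured value that chose them was that mean over both groups. Of the 65, 55 encode Rab GTPases and 10 encode proteins that act on Rabs or bind them and carry the name through their symbol (Rab3gap1, Rab3gap2, Rab3ip, Rab3il1, Rab11fip1 to Rab11fip5 and Rab5if). The table held 69 such symbols, and the 4 that stayed below the minimum were Rab19 (mean 5.72), Rab44 (2.09), Rab17 (1.17) and Rab25 (0.912). Just above the minimum lay Rab42 (30.3), Rab38 (33.9), Rab20 (34.3) and Rab43 (37.6).

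All 10 animals were C57Bl/6 mice of 8 weeks, and each received an adeno-associated virus of serotype 9 in the dentate gyrus of both hemispheres. In 5 mice the virus carried GFP and in 5 it carried Sox11, so the control animals also bore virus and surgery. The promoter of the viral genes and the time from injection to dissection are not given in the sources at hand. The dentate gyrus was dissected and its poly(A) RNA sequenced with strand marked, to ask which transcripts differ when Sox11, a transcription factor of newborn neurons, is supplied. Libraries are called GFP 1, 3, 4, 5 and 6 or Sox11 1, 2, 3, 6 and 7, after the columns the authors deposited.

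Rab proteins are small GTPases of the Ras superfamily that give each membrane compartment its identity. Each cycles between a GDP-bound form, held soluble by GDP dissociation inhibitor, and a GTP-bound form on the membrane. Exchange factors load the GTP, effectors (tethers, motors, kinases) bind the loaded form, and GTPase-activating proteins end the cycle. In neurons they direct synaptic vesicle release, endosomal recycling of receptors, supply of membrane to growing neurites, and degradation.

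Between 45100154 reads (Sox11 6) and 68769808 reads (Sox11 3) were assigned to genes per library. Sox11 itself lay from 1364 to 1634 normalized counts with GFP and from 9803 to 20434 with Sox11, without overlap (log2 fold change 3.08, SE 0.18, two-sided exact permutation p = 0.00794, the smallest that 252 assignments can give). Viral and endogenous Sox11 transcripts are not told apart in these counts. Of 13 tested markers of immature neurons 8 passed the test as higher in Sox11 libraries and none as lower, and their summed level ran from 40956 to 51330 in GFP and from 79317 to 106990 in Sox11 libraries. Of 11 granule neuron markers 2 passed as higher and 5 as lower, with sums of 65238 to 92559 and 69806 to 97430. Astrocyte markers gave 4 higher of 9 (sums of 266540 to 346687 and 293651 to 374452), microglial markers 3 higher of 10 (23809 to 28701 and 23669 to 29041) and interneuron markers 2 lower of 9 (43030 to 50233 and 33427 to 44148). No marker of oligodendrocytes (9), endothelium (7), CA pyramidal neurons (9) or choroid plexus (10) passed, and no list held a gene at 0. The part of these cell types in the Rab results was not tested, and in such bulk tissue fewer cells of a type and less RNA per cell cannot be told apart. Library GFP 3 stood apart by choroid plexus RNA: Ttr, the transthyretin of that epithelium, was at 345861 normalized counts there and at 34.9 to 1312 elsewhere.

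More Rab genes were lower than higher in the dentate gyrus that received Sox11. Rab37, Rab27a, Rab15, Rab8b, Rab32, Rab27b, Rab3gap1, Rab6a, Rab21, Rab28, Rab6b, Rab3d, Rab2a, Rab5a, Rab3gap2 and Rab35 fell, in order of size, and Rab33a, Rab34 and Rab11b rose. That is 19 of 65 members past an adjusted p of 0.05 (limma on log2 of the normalized count + 1, adjusted by the Benjamini-Hochberg method over all 17007 genes), with 3 higher and 16 lower. In the background 19.0% of all genes tested passed, 9.65% as higher and 9.36% as lower, against 29.2% of the members. The 5 GFP and 5 Sox11 values did not overlap for 17 members, 3 with Sox11 above and 14 with Sox11 below, while 15.9% of all genes were without overlap, 8.63% above and 7.29% below.

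Sizes were small. The members' median log2 fold change (Sox11 minus GFP) was -0.07 and that of all genes -0.01, and 46 of 65 members (70.8%) had a value below 0 against 51.5% of all genes. In 42 of the 65 members the value was within 0.2 of 0, as it was in 10632 of the 17007 genes tested. The median absolute value was 0.12 in the members and 0.15 in all genes, so small sizes were not particular to Rab genes. Well-measured genes pass more often. At a mean of at least 1000 normalized counts 14 of 49 members passed, near the 26.2% of all 8149 such genes. The share that passed in either direction is thus close to the background there. By direction 1 member was higher and 13 were lower, against 11.6% and 14.5% of such genes, and this split was not tested. Leaving out GFP 3 gave the same counts of 3 and 16. Scaling by quantile normalization moved the split to 6 higher and 11 lower.

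The count of lower members also depended on single libraries: it was 10 without GFP 4, GFP 5 or GFP 6 and 9 without Sox11 1. In 12 members (Rab33a, Rab34, Rab11b, Rab3gap1, Rab8b, Rab27a, Rab27b, Rab15, Rab6a, Rab28, Rab21 and Rab3d) the call held in every one of 21 alternatives, each library left out in turn included. Other settings also ended calls among the remaining 7 members: no filter on low values did so for Rab6b, Rab3gap2, Rab5a, Rab35, Rab37 and Rab32, and quantile scaling for Rab6b, Rab2a, Rab5a, Rab35 and Rab32. Plain limma ended those of Rab6b, Rab5a and Rab37, and a pseudocount of 8 that of Rab37. The labels name no batch. Within libraries numbered 1 to 3, 5 members passed (1 higher, 4 lower), and within those numbered 4 to 7, 15 passed (2 higher, 13 lower). All 19 members kept their sign within both, but they were called on these same libraries. For the 17 without overlap the sign was fixed in advance, so nothing is read from it.

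**Figure D1:**
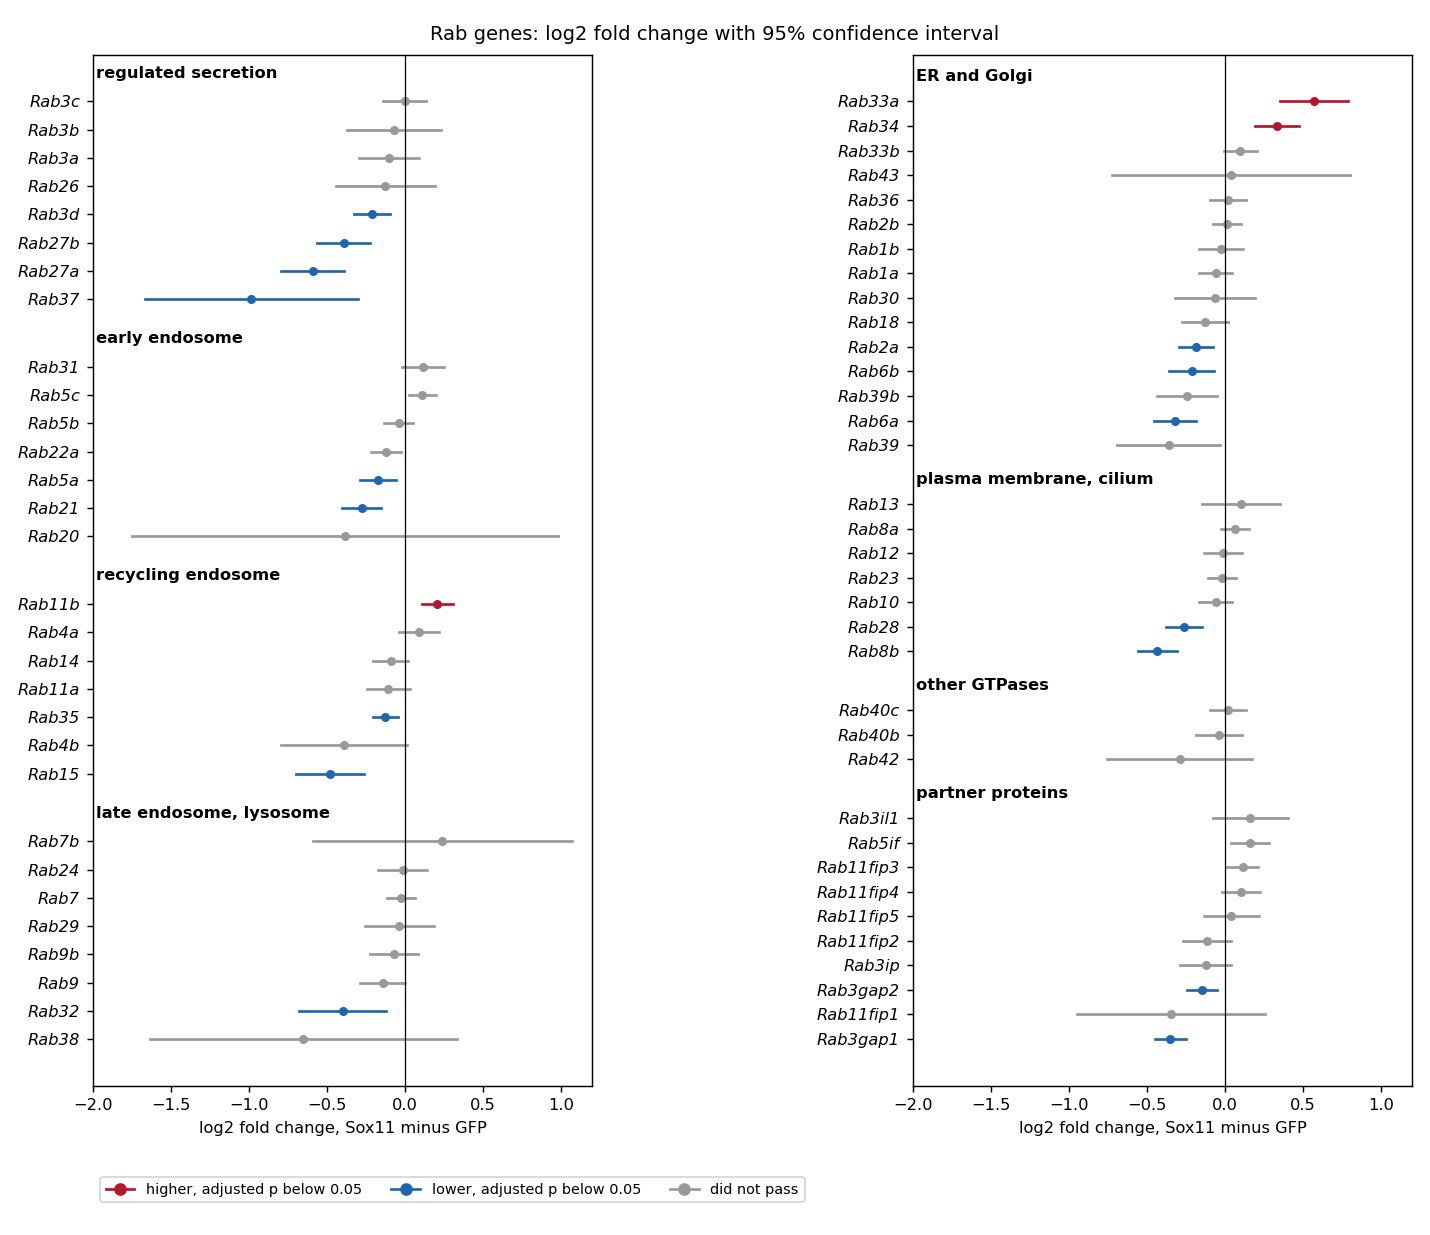
Log2 fold change of the 65 Rab members (Sox11 minus GFP, x axis), grouped by the compartment each is known for, with points for estimates and lines for 95% confidence intervals. Red marks the 3 members that rose, blue the 16 that fell and grey the 46 that did not pass; the 8 secretory Rabs all lie at or left of 0.

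The proximal promoters of 4 changed members are shown: Rab33a and Rab11b, which rose, and Rab27a and Rab3gap1, which fell. They cover both directions but not every compartment group. Each is a RefSeq window of 300 bases on GRCm38.p6, from 250 bases before a transcription start to 50 after it, read along the gene's strand. Capitals mark ACAAAG or ACAATG, words of the kind that Sox proteins bind, and CCCGCC, the core of a GC box, each in either direction; a Sox-type word and a GC box can share 1 base. Rab33a lies at chrX:48519035-48519334 (plus strand), Rab11b at chr17:33760437-33760736 (minus strand), Rab27a at chr9:73044560-73044859 (plus strand) and Rab3gap1 at chr1:127868523-127868822 (plus strand).
Rab33a: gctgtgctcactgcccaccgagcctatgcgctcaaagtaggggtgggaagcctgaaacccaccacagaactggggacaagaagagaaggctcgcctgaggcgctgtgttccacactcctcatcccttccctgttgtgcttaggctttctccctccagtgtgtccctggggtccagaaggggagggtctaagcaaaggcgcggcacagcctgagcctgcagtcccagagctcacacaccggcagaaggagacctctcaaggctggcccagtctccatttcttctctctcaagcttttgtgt
Rab11b: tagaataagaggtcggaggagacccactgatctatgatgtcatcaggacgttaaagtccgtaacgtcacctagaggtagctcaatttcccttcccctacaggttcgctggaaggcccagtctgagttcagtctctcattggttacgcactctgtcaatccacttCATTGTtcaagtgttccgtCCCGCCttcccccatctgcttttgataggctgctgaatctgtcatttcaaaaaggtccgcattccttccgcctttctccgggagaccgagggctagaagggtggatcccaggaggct
Rab27a: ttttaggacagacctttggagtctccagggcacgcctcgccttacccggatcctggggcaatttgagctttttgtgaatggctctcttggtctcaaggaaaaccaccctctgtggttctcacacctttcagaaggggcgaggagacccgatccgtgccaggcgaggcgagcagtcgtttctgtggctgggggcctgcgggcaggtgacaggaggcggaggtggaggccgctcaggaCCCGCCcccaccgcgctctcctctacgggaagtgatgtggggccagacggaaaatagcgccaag
Rab3gap1: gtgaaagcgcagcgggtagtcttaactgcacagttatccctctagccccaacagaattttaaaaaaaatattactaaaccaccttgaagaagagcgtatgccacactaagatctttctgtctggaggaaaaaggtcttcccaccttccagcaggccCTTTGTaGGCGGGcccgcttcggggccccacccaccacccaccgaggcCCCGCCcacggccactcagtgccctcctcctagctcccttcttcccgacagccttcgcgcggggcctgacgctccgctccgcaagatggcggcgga

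The Rab33a window held neither kind of word and 7 CpG dinucleotides. The Rab11b window held 1 Sox-type word, which begins 86 bases before the start, and 1 GC box. In Rab27a there was 1 GC box and no Sox-type word, and in Rab3gap1 there were 2 GC boxes beside a Sox-type word that begins 94 bases before the start. Windows could be matched for 53 of the 65 members and 16 of the 19 changed ones. In 46 of the 53 the bases after the start lay in an annotated transcript of the gene. The Rab27a window was not among these. A Sox-type word stood in 4 of the 53 windows (7.55%), those of Rab11b, Rab3gap1, Rab9 and Rab9b, and in 28.6% of all 32851 windows. Among changed members only Rab11b and Rab3gap1 had one, and both are among the windows printed. A GC box stood in 40 of the 53 (75.5%) and in 35.3% of all windows. It was present in 12 of 13 matched members that fell and 1 of 3 that rose. Rab windows were rich in CpG, with a median of 24 against 7 over all windows, and their median G and C content was 63.3% against 52.7%. The Rab set holds 1 window per member, while the set of all windows has no limit on level or on windows per gene. These shares are therefore not like for like, and the matches describe letters in the windows.

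Rabs of regulated secretion included the 2 largest decreases, Rab37 and Rab27a. Of 8 members 4 fell (Rab37, Rab27a, Rab27b and Rab3d), none rose, and all 8 had estimates below 0 (median -0.17, against -0.01 for all genes). Of all genes tested 9.36% passed as lower, and of those with a mean of at least 1000, 14.5%. The compartment groups hold 15 members or fewer, and no difference between them was tested. The 4 that did not pass were Rab3a, Rab3b, Rab3c and Rab26.

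Rab27a (ENSMUSG00000032202, chromosome 9, 73044854 to 73097629, plus strand, GRCm38) tethers secretory granules, melanosomes and multivesicular bodies near the plasma membrane. It was at 862, 688, 791, 1027 and 842 normalized counts in GFP 1, 3, 4, 5 and 6 and at 567, 535, 556, 578 and 534 in Sox11 1, 2, 3, 6 and 7. Every Sox11 library lay below every GFP library, and the Sox11 values lay close together. The mean went from 842 ± 123 to 554 ± 19.4 (SD, n = 5 each), which is -0.59 on the log2 scale (SE 0.09, limma adjusted p = 0.00129). Its close relative Rab27b (ENSMUSG00000024511, chromosome 18), which acts in the release of dense granules and synaptic vesicles, stood at 2287, 1995, 2658, 2415 and 2530 with GFP. With Sox11 it stood at 1733, 1851, 1637, 1901 and 1902. Again the groups did not overlap, and Rab27b fell by 0.39 on the log2 scale (SE 0.08, adjusted p = 0.00470).

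Rab37 (ENSMUSG00000020732, chromosome 11, 115091431 to 115162236, plus strand), a Rab of secretory granules in mast cells, had the largest estimate and one of the weakest calls. Its values were 290, 427, 126, 161 and 147 normalized counts in GFP 1, 3, 4, 5 and 6 and 124, 88.3, 91.3, 125 and 95.3 in Sox11 1, 2, 3, 6 and 7. The groups did not overlap, yet GFP 4 at 126 and Sox11 6 at 125 nearly met, and GFP 1 and GFP 3 were far above the other GFP libraries. The estimate was -0.98 (SE 0.31, 95% interval -1.67 to -0.30, adjusted p = 0.0478). Without GFP 3, the library with choroid plexus RNA, it was -0.72 (adjusted p = 0.0470). Leaving out GFP 1, GFP 5 or any Sox11 library ended the call, with adjusted p between 0.0572 and 0.104. Within libraries 1 to 3 the difference was -1.80 and within 4 to 7 it was -0.40. The part of choroid plexus RNA was not tested.

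Rab3d, known from the granules of exocrine glands, fell from 1251 ± 76.9 to 1079 ± 44.5 normalized counts (log2 fold change -0.21, SE 0.05, adjusted p = 0.0178) without overlap. Rab3a, the main Rab of synaptic vesicles, had the highest GFP mean per kilobase of exon, with a range that overlapped that of Rab6b. In normalized counts Rab3a was at 24991 ± 2143 in GFP and 23348 ± 2804 in Sox11 libraries. Its groups overlapped, and the estimate of -0.10 had a 95% interval from -0.29 to 0.09 (adjusted p = 0.480). Rab3c, its relative in synaptic vesicles, gave -0.00 (interval -0.14 to 0.14), and Rab3b gave -0.07 (interval -0.37 to 0.23). Rab26, a Rab of secretory granules and of synaptic vesicle turnover, gave -0.13 (interval -0.45 to 0.19).

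**Figure D2:**
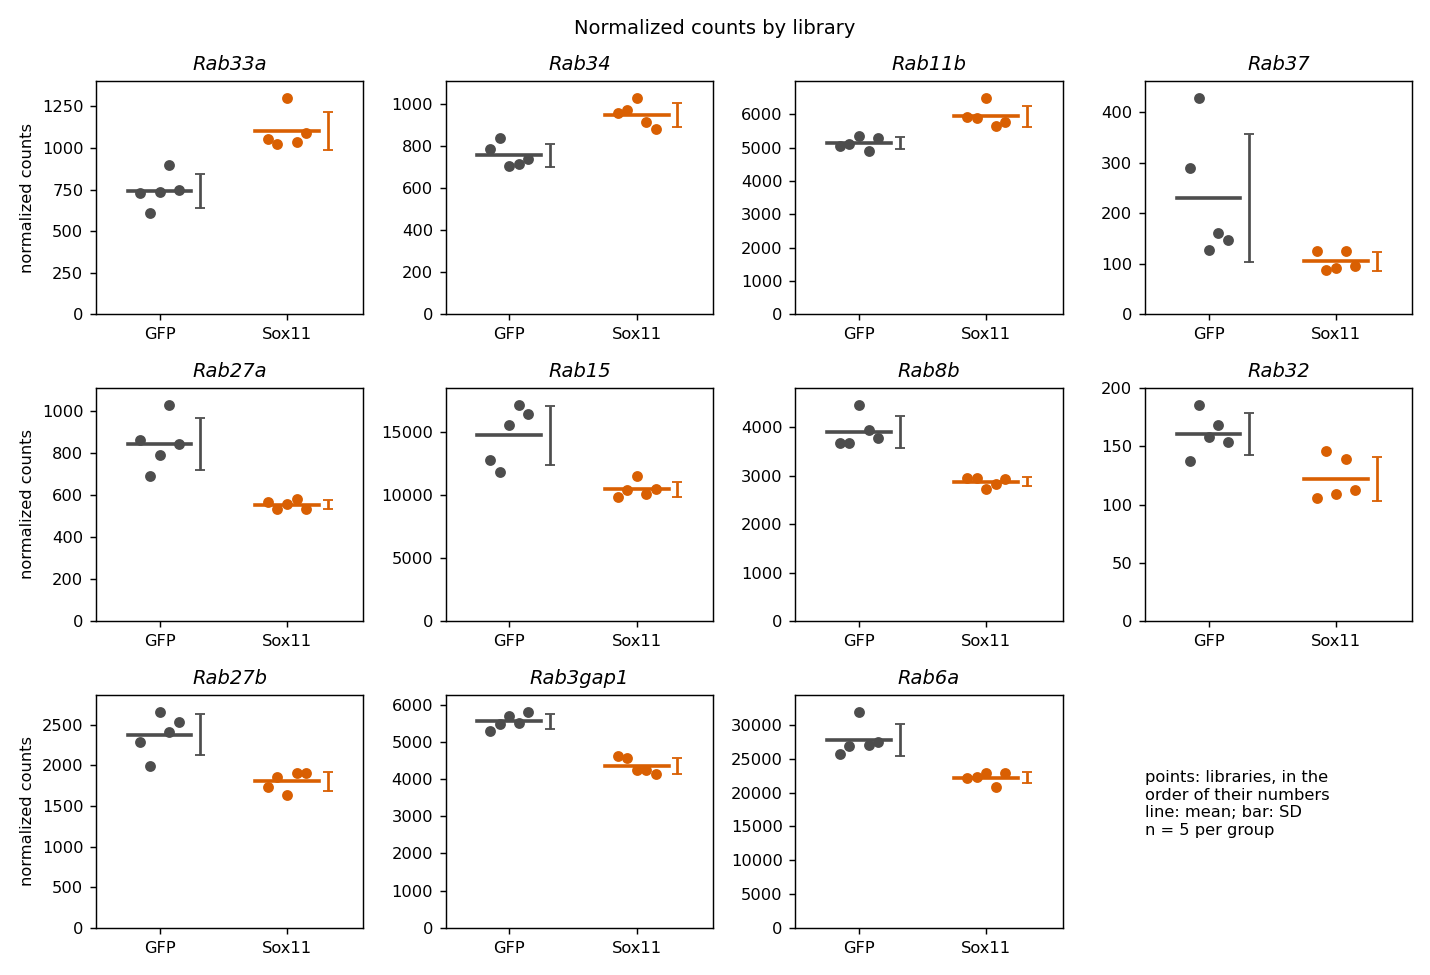
Normalized counts (y axes from 0) of the 3 members that rose and the 8 largest decreases, with one point per library in the order of the library numbers, a line at the mean and a bar for the SD (n = 5 per group). The groups overlap in Rab32 and nowhere else among these 11 genes, and Rab37 shows the 2 high libraries GFP 1 and GFP 3.

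Among the Rabs of the early endosome, 2 of 7 fell and none rose (median -0.12). The share of 28.6% stood against 19.0% of all genes and 26.2% of those with a mean of at least 1000. Rab21, which guides integrins through early endosomes, went from 2944 ± 148 to 2430 ± 167 normalized counts without overlap (-0.28, SE 0.06, adjusted p = 0.00566). Rab5a, which drives fusion of early endosomes, went from 5035 ± 338 to 4463 ± 204 (-0.17, SE 0.05, adjusted p = 0.0398). Its GFP libraries ran from 4854 to 5636 and its Sox11 libraries from 4262 to 4805, so the groups came close. The Rab5a call was lost without GFP 1, 4, 5 or 6 or without Sox11 1, 2, 3 or 6, at adjusted p between 0.0530 and 0.0850. The other copies of Rab5 did not pass: Rab5b gave -0.04 (interval -0.13 to 0.05) and Rab5c, which went from 6841 ± 153 to 7388 ± 281, gave 0.11 (interval 0.02 to 0.20, adjusted p = 0.0769). Rab22a and Rab31, relatives of Rab5, gave -0.12 and 0.12 (adjusted p = 0.0807 and 0.226), and Rab22a passed without GFP 1 (adjusted p = 0.0462). Rab20 was at 167 normalized counts in GFP 3 and at 11.2 to 29.8 elsewhere, 5.61 times the next highest, and did not pass (adjusted p = 0.744).

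In the recycling endosome, 2 of 7 members fell, 1 rose and 4 did not pass (median -0.11). The changed share was 42.9%, against 19.0% of all genes and 26.2% of those with a mean of at least 1000. Rab15 (ENSMUSG00000021062, chromosome 12, 76797960 to 76822908, minus strand), a Rab of sorting and recycling endosomes that is abundant in brain, was the larger decrease. Its values were 12711, 11769, 15502, 17094 and 16389 normalized counts with GFP and 9824, 10369, 11445, 10086 and 10418 with Sox11. The lowest GFP library, GFP 3 at 11769, lay just above the highest Sox11 library, Sox11 3 at 11445. The mean went from 14693 ± 2333 to 10428 ± 616 (-0.48, SE 0.10, adjusted p = 0.00647). Within libraries 1 to 3 the difference was -0.22 and within 4 to 7 it was -0.67. Rab35, which acts in fast recycling and neurite growth, fell from 4821 ± 137 to 4418 ± 78.7 (-0.13, SE 0.04, adjusted p = 0.0307). The Rab35 groups did not overlap, but the call was lost without GFP 1, 4 or 6 or Sox11 1, 3, 6 or 7 (adjusted p between 0.0520 and 0.0753).

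Rab11b (ENSMUSG00000077450, chromosome 17, 33742484 to 33760530, minus strand), the brain-enriched copy of the recycling Rab, rose. It was at 5060, 5115, 5356, 4902 and 5290 normalized counts with GFP and at 5929, 5895, 6479, 5645 and 5770 with Sox11. No value of one group reached the other (log2 fold change 0.21, SE 0.05, adjusted p = 0.00971). Of its 31-base words 89.1% occur in no other gene, and the gene that shares most is Rab11b-ps2. Rab11a, the widely expressed copy, went from 4727 ± 359 to 4390 ± 309, which did not pass (-0.11, interval -0.25 to 0.03, adjusted p = 0.285). Rab4a, the Rab of fast recycling, was at 1832 ± 30.5 and 1956 ± 182 (0.09, interval -0.04 to 0.22, adjusted p = 0.339). Rab14, of endosome to Golgi traffic, gave -0.09 (adjusted p = 0.257). Rab4b, at 65.5 ± 9.60 and 50.3 ± 10.8, did not pass (adjusted p = 0.167) and is uncertain, since 65.0% of its exonic bases lie in another gene of the same strand and 37.4% of its words are its own.

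Of 8 Rabs of late endosomes and lysosomes, 1 fell and 7 did not pass (median -0.05, 12.5% changed against 19.0% of all genes). Rab32 (ENSMUSG00000019832, chromosome 10, 10545002 to 10558265, minus strand), which serves lysosome-related organelles, was at 137, 185, 158, 169 and 154 normalized counts with GFP. With Sox11 it was at 105, 146, 109, 139 and 112. The groups overlapped, as Sox11 2 and Sox11 6 lay above GFP 1 (-0.40, SE 0.13, adjusted p = 0.0482). The Rab32 call was lost without GFP 3, 4, 5 or 6 or Sox11 1, 3 or 7, at adjusted p between 0.0757 and 0.109. It was also lost without a filter on low values, with TMM or quantile scaling, with edgeR and with column numbers as covariate. Rab7, the Rab of late endosome to lysosome traffic, was at 13788 ± 478 and 13562 ± 392 (-0.02, interval -0.11 to 0.07, adjusted p = 0.770). Its words were 83.7% its own, with Rab7-ps1 sharing most. Rab9 and Rab9b, which return receptors from late endosomes to the Golgi, gave -0.14 and -0.07 (adjusted p = 0.162 and 0.570). Rab38 and Rab7b were highest in GFP 3, at 84.1 against at most 48.3 and at 159 against at most 112 elsewhere, and did not pass.

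**Figure D3:**
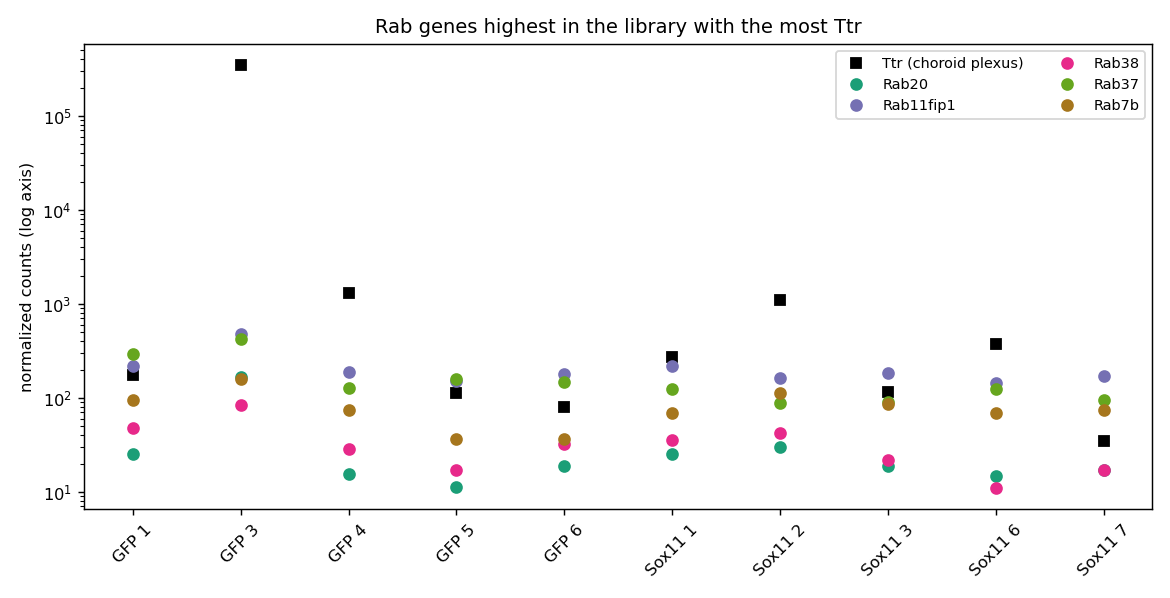
Normalized counts (log y axis) of 5 Rab members and of Ttr, a choroid plexus gene, in each of the 10 libraries (x axis). Ttr reaches 345861 in GFP 3, and the 5 Rab members, chosen after their values were seen, are also at their highest there, Rab20 at 167 and Rab11fip1 at 481.

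The Rabs of the endoplasmic reticulum and Golgi moved in both directions: of 15, 2 rose, 3 fell and 10 did not pass (median -0.06). This share of 33.3% stood against 19.0% of all genes and 26.2% of those with a mean of at least 1000. Rab33a (ENSMUSG00000031104, chromosome X, 48519285 to 48530232, plus strand), a Golgi Rab that in rat neurons supplies vesicles to growing axons, was the largest increase. It was at 730, 607, 737, 897 and 747 normalized counts with GFP and at 1056, 1021, 1299, 1036 and 1093 with Sox11. Each Sox11 library exceeded each GFP library, and Sox11 3, which also had the most Sox11 reads, was the highest. The log2 fold change was 0.57 (SE 0.10, adjusted p = 0.00250), 0.75 within libraries 1 to 3 and 0.43 within 4 to 7. Its window held no Sox-type word, as shown above. Rab33b, its partner at the Golgi and in autophagosome formation, gave 0.10 (interval -0.01 to 0.20, adjusted p = 0.182).

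Rab34 (ENSMUSG00000002059, chromosome 11, 78188430 to 78192193, plus strand), which acts at the Golgi and in the early steps of primary cilium formation, rose as well. With GFP it was at 784, 835, 703, 712 and 738 normalized counts and with Sox11 at 955, 970, 1025, 912 and 877. The gap between the groups was small but complete (0.33, SE 0.06, adjusted p = 0.00464).

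Rab6a (ENSMUSG00000030704, chromosome 7, 100607410 to 100641268, plus strand), the Rab of retrograde Golgi traffic, fell. It was at 25634, 26865, 31916, 27051 and 27459 normalized counts with GFP and at 22184, 22297, 22822, 20869 and 22832 with Sox11. GFP 4 was the highest library by far, and the groups did not overlap (-0.32, SE 0.06, adjusted p = 0.00403). Rab6b, the neuronal copy and the Rab gene with the most counts, went from 51215 ± 4643 to 44013 ± 1503 (-0.21, SE 0.07, adjusted p = 0.0403). Its groups overlapped, since GFP 3 at 45434 lay below Sox11 3 at 46639. The Rab6b call was lost without GFP 4, 5 or 6 or Sox11 1, 2, 6 or 7 (adjusted p between 0.0720 and 0.0955), and the difference was -0.06 within libraries 1 to 3 and -0.32 within 4 to 7.

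Rab2a, which tethers membranes between endoplasmic reticulum and Golgi, fell from 18773 ± 1121 to 16496 ± 455 (-0.18, SE 0.05, adjusted p = 0.0235) without overlap. Without GFP 4, 5 or 6 or Sox11 1 or 6 the Rab2a call was lost, at adjusted p between 0.0523 and 0.0581. Rab2b gave 0.01 (interval -0.08 to 0.10), with 64.0% of its exonic bases under a gene of the opposite strand. Rab1a, which carries cargo from endoplasmic reticulum to Golgi, was at 10738 ± 663 and 10285 ± 329 (-0.06, interval -0.17 to 0.05, adjusted p = 0.450), and its copy Rab1b gave -0.03 (interval -0.17 to 0.12). Rab39b, whose loss causes intellectual disability in humans, gave -0.24 (adjusted p = 0.0780) and passed without GFP 3 or Sox11 7 (lowest adjusted p = 0.0234).

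Of 7 Rabs that serve the plasma membrane and the cilium, 2 fell and none rose (median -0.02). As a share this was 28.6%, against 19.0% of all genes and 26.2% of those with a mean of at least 1000. Rab8b (ENSMUSG00000036943, chromosome 9, 66843664 to 66919687, minus strand), which acts in delivery of membrane proteins from the Golgi, was at 3670, 3670, 4461, 3946 and 3775 normalized counts with GFP. It was at 2954, 2955, 2733, 2842 and 2930 with Sox11. A wide gap separated the groups (-0.43, SE 0.06, adjusted p = 0.000524). Rab8a, which shares these roles, was at 2219 ± 80.4 and 2319 ± 69.9 (0.06, interval -0.03 to 0.15, adjusted p = 0.320). Rab28, a Rab of cilia, fell from 3123 ± 135 to 2606 ± 169 without overlap (-0.26, SE 0.05, adjusted p = 0.00526). Rab10, which delivers membrane to the surface and to growing axons, was at 10508 ± 573 and 10080 ± 401 (-0.06, interval -0.17 to 0.05, adjusted p = 0.457). Rab12, Rab13 and Rab23, the last a regulator of Hedgehog signalling, had estimates between -0.02 and 0.10 and did not pass. Rab40b, Rab40c and Rab42, in no compartment group, did not pass either.

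The 10 partner proteins gave 2 decreases and no increase (median -0.04), a share of 20% that was near the 19.0% of all genes. Rab3gap1 (ENSMUSG00000036104, chromosome 1, 127868773 to 127943868, plus strand) is the catalytic subunit of the complex that ends the GTP-bound state of Rab3, and the complex also loads Rab18. It had the lowest p of all 65 members. Its values were 5281, 5488, 5707, 5506 and 5805 normalized counts with GFP and 4617, 4562, 4234, 4235 and 4137 with Sox11. Neither group varied much, and they did not overlap (-0.35, SE 0.05, adjusted p = 0.000487). The other subunit, Rab3gap2, fell from 5052 ± 220 to 4560 ± 155 (-0.15, SE 0.04, adjusted p = 0.0338). The Rab3gap2 call was lost without GFP 1, 4, 5 or 6 or Sox11 1, 2, 3 or 7, at adjusted p between 0.0516 and 0.0826. The Rab11 effectors Rab11fip1 to Rab11fip5 did not pass, with estimates between -0.35 and 0.11, and Rab11fip1 was at 481 in GFP 3 against 145 to 220 elsewhere. Rab3ip and Rab3il1, exchange factors for Rab8, did not pass, and Rab5if (0.16, adjusted p = 0.0656) passed without Sox11 7 (adjusted p = 0.0157).

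Several Rab copies of the same number differed in their response, so the log2 ratio of each such pair was compared between the groups. Apart from the pseudocount, such a ratio does not depend on the scaling of the libraries. There were 21 pairs, tested by two-sided exact permutation over the 252 assignments and adjusted over the 21 by Benjamini-Hochberg. In 8 pairs the groups did not overlap, each with an exact permutation p of 0.00794, the smallest possible, and an adjusted value of 0.0208. A pair that holds a changed gene carries that gene's difference: 6 of the 8 pairs held a member that passed the test on its own, as did 11 of the 21. Single genes were without overlap in 15.9% of all cases, the share over pairs of other genes was not computed, and nothing particular to Rab copies is read from the count. Several of the pairs share a gene and are not independent, and their members were chosen with earlier results known.

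The ratio of Rab8a to Rab8b shifted by 0.50 on the log2 scale, from between -1.02 and -0.65 in GFP libraries to between -0.39 and -0.22 in Sox11 libraries. Rab33a to Rab33b shifted by 0.47, from between -1.26 and -0.66 to between -0.62 and -0.26. Rab11a to Rab11b shifted by -0.31, from between -0.20 and -0.00 to between -0.54 and -0.29. In these 3 pairs one copy passed the test and the other did not.

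Among the Rab5 genes all 3 ratios shifted: Rab5a to Rab5c by -0.28, Rab5b to Rab5c by -0.15 and Rab5a to Rab5b by -0.13. The order of the shifts places Rab5a lowest and Rab5c highest. Rab2a to Rab2b shifted by -0.20. Rab4a to Rab4b shifted by 0.48, with the uncertainty of Rab4b named above. Rab27a to Rab27b shifted by -0.20 (p = 0.0794, adjusted 0.167) and Rab6a to Rab6b by -0.11 (p = 0.135, adjusted 0.258), exact permutation values that do not separate these copies. The next pair, Rab3c to Rab3d, gave 0.21 (exact permutation p = 0.0317, adjusted 0.0741).

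**Figure D4:**
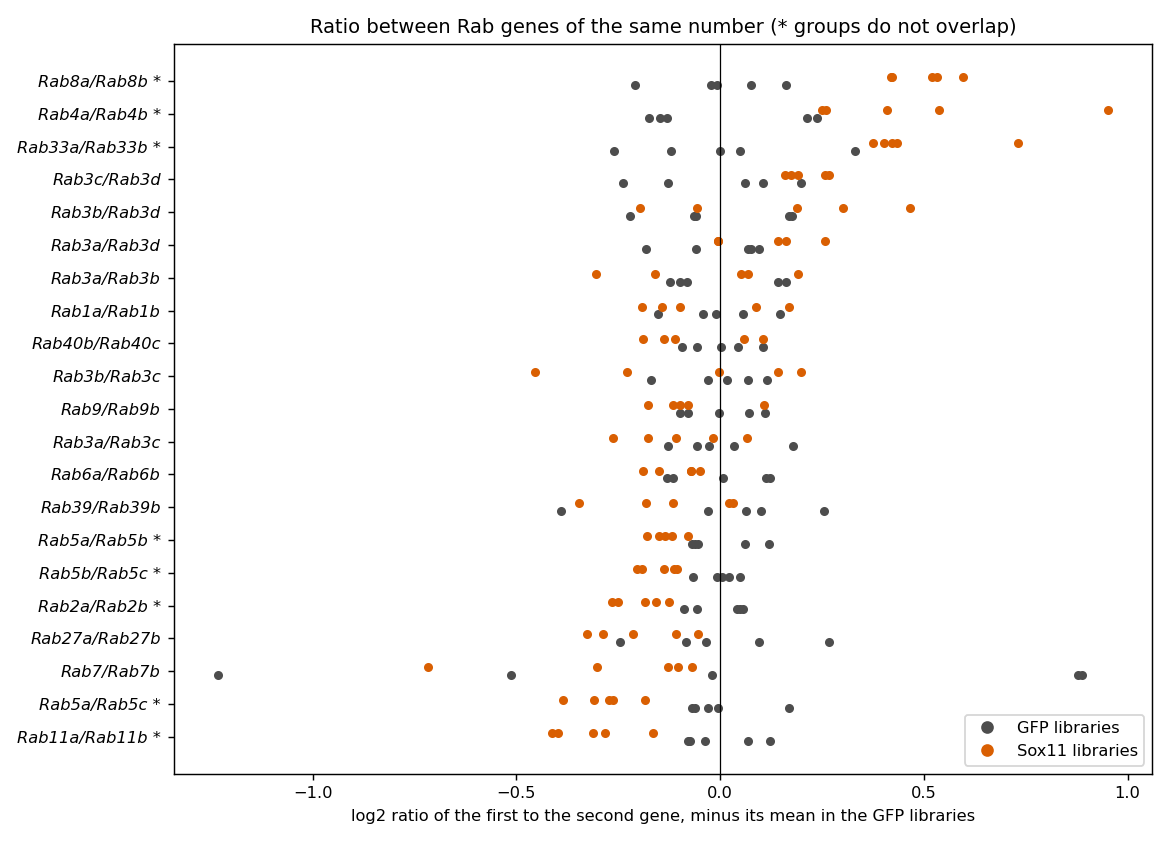
Log2 ratio of the first to the second Rab gene in each of 21 same-numbered pairs, minus its mean with GFP (x axis), with grey points for the 5 GFP and orange points for the 5 Sox11 libraries. In the 8 pairs with an asterisk the groups do not overlap, from Rab8a/Rab8b at 0.50 to Rab11a/Rab11b at -0.31.

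Levels were compared between genes as normalized counts per kilobase of exon. The length was that of all annotated exons of a gene together, not of the transcripts expressed. Rab3a led in the GFP group at 11227 ± 963, followed by Rab6b at 10180 ± 923, Rab2a at 8801 ± 525, Rab6a at 7453 ± 646 and Rab7 at 5283 ± 183 (SD, n = 5). These 5 held between 48.7% and 50.2% of the summed level of the 55 GTPases in GFP libraries and between 46.6% and 48.7% in Sox11 libraries. By this measure synaptic vesicle, Golgi and late endosomal Rabs stood at the top. The order depends on the annotated length: Rab3c had a GFP mean of 23868 normalized counts, near the 24991 of Rab3a, but stood at place 11. Its exons cover 12049 bases, those of Rab3a 2226. Next came Rab1b (3216), Rab15 (3184), Rab5c (3118), Rab10 (2991) and Rab1a (2827). The highest level was 1743 times the lowest, that of Rab43 at 6.44, of which 75.4% of exonic bases lie in another gene of the same strand.

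Neighbours in this order mostly had overlapping ranges: in 45 of 54 neighbouring pairs the ranges of the GFP libraries overlapped. Both genes of a pair were measured in the same libraries, and their order within each library was not compared. Overlap of ranges thus does not show that the order differed between libraries. The ranges of Rab6a and Rab7 lay wholly above that of the next gene below. In Sox11 libraries the first 5 places were the same, Rab15 went from place 7 to 10, Rab5c from 8 to 6 and Rab33a from 30 to 21, the largest change of 9 places. The summed level was 86888 ± 4501 per kilobase in GFP (80957 to 91380) and 80107 ± 2512 in Sox11 libraries (76913 to 83948), with overlap.

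**Figure D5:**
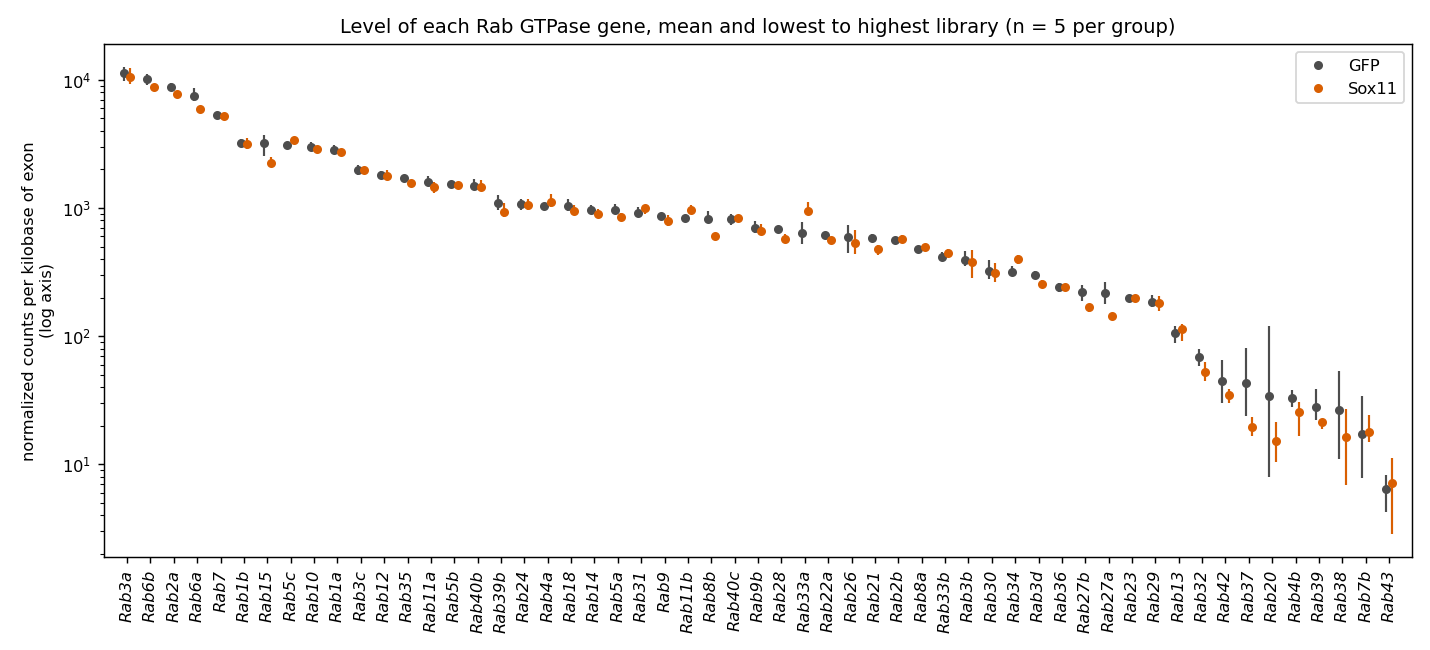
Normalized counts per kilobase of exon (log y axis) of the 55 Rab GTPase genes in order of their GFP mean, with points for group means and lines from the lowest to the highest of 5 libraries. Rab3a leads at 11227 and Rab43 is last at 6.44, and the separation of the groups shows at Rab6a, Rab15, Rab8b, Rab33a, Rab34 and Rab27a.

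Most members varied little between animals. The median coefficient of variation was 7.59% in GFP and 6.58% in Sox11 libraries, and 46 of 65 members lay below 10% in GFP. The highest value of a member fell in GFP 4 for 21 members, in GFP 6 for 12, in Sox11 3 for 10 and in GFP 3 for 7.

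The machinery around the Rabs was counted from lists of genes, which were chosen with earlier results known. Of 64 tested effectors 14 fell and 1 rose (median -0.10, against -0.01 for all genes). The share that passed was 23.4%, against 19.0% of all genes and 26.2% of those with a mean of at least 1000. Myrip, which links Rab27 to myosin on secretory granules, went from 3646 ± 249 to 2772 ± 127 normalized counts (-0.39, adjusted p = 0.000678). Rilpl1, which binds Rabs phosphorylated by Lrrk2, fell by 0.50 (adjusted p = 0.00164), and the kinase Lrrk2 by 0.52 (adjusted p = 0.00259). Rilpl2 and Lrrk1, also on the list, gave 0.04 and -0.06 and did not pass (limma adjusted p = 0.792 and 0.940). Acap2, a Rab35 effector of neurite growth, fell by 0.47 (adjusted p = 0.00191). Mical1, an enzyme that takes actin filaments apart and binds Rabs, was the riser, from 427 ± 23.9 to 622 ± 58.9 (0.54, adjusted p = 0.000755).

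Rims1 and Rims2, the Rab3 effectors of the presynaptic active zone, fell by 0.28 and 0.27 (adjusted p = 0.0169 and 0.00219). Eea1 and Rabep1, the Rab5 effectors of endosome fusion, fell by 0.27 and 0.19 (adjusted p = 0.0124 and 0.0242). The Rabep1 call was lost without GFP 4 or 5 or Sox11 1, 2 or 3, at adjusted p between 0.0511 and 0.0605. Lrrk2 and these 4 effectors were chosen after their values were seen. Ocrl, on the same list, passed as lower (-0.21, adjusted p = 0.0119), while the following effectors of Rab3 and Rab5 did not pass. The synaptic vesicle proteins Rph3a and Doc2b gave 0.21 and 0.01 (adjusted p = 0.0980 and 0.925), and the active zone proteins Rims3 and Rims4 gave -0.37 and -0.11 (adjusted p = 0.267 and 0.392). The endosomal proteins Appl1 and Appl2 gave -0.21 and -0.03 (adjusted p = 0.0528 and 0.762), and Rabep2 and Rbsn gave 0.11 and -0.02 (adjusted p = 0.505 and 0.822).

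GTPase-activating proteins went both ways, with 5 of 39 higher and 5 lower (median 0.04). In all 25.6% passed, against 19.0% of all genes and 26.2% of those with a mean of at least 1000. Tbc1d16, which acts on Rab4, rose from 5258 ± 490 to 8388 ± 940 (0.67, adjusted p = 0.000444). Tbc1d20, which acts on Rab1 and Rab18, rose by 0.36 on the log2 scale (adjusted p = 0.00118) and Tbc1d14, a Rab11-binding regulator of autophagy, by 0.35 (adjusted p = 0.00251). Tbc1d32, a protein of cilium assembly, fell by 0.31 (adjusted p = 0.00399).

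Exchange factors gave 2 higher and 4 lower of 33 (median -0.06), and this share of 18.2% was near the 19.0% of all genes. Hps1, part of the exchange factor for Rab32 and Rab38, rose from 407 ± 20.0 to 532 ± 29.1 (0.39, adjusted p = 0.00187). Rabgef1, the Rabex-5 exchange factor for Rab5 and Rab21, fell by 0.16 (adjusted p = 0.0164). Dennd1b, an exchange factor for Rab35, fell by 0.33 (adjusted p = 0.0206), a call lost without GFP 4 or Sox11 3 (adjusted p between 0.0513 and 0.0532). Dennd6a, an exchange factor for Rab14, fell by 0.18 (adjusted p = 0.0208), a call lost without GFP 4 or 6 or Sox11 1 or 3 (adjusted p between 0.0513 and 0.0542).

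Of 11 genes for prenylation, GDP dissociation and membrane delivery 2 fell and none rose (median -0.10), a share of 18.2% that was also near the background. Yipf4, a Golgi protein of the Yip family, fell by 0.26 (adjusted p = 0.0126). Chm, the escort protein that presents new Rabs for prenylation, fell by 0.28 (adjusted p = 0.0463), a call lost without GFP 3, 4, 5 or 6 or Sox11 1, 2, 3 or 6 (adjusted p between 0.0635 and 0.107) and also with plain limma. Without a filter on low values the calls of Chm, Rabgef1 and Dennd6a were lost. Of 7 tested Rab-like GTPases, Rabl6 fell by 0.21 (adjusted p = 0.00895) and the other 6 did not pass, a share of 14.3%.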

How the data were processed

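The authors deposited normalized counts, that is, a signal made by dividing each library's read counts by 1 factor, per the labels. The submitters' processing notes name, without their roles, STAR 2.5.2a, GRCm38, featureCounts 1.5.1 of Subread, DESeq2 1.12.3 with R 3.3.1, cutadapt 1.9.1 and bcl2fastq 1.8.4. The strand setting and the treatment of multiply mapped reads are not given in the sources at hand.

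Of 48526 identifiers 48144 were matched to symbols. Columns were assigned to groups only, because their numbers differ from those in the titles. The deposited values were whole multiples of 1 read within 0.01 reads in 100% of cases. Whole reads could thus be recovered, and edgeR called 3237 genes on them. Within groups no 2 libraries agreed within counting noise (lowest chi-square per degree of freedom 11.3 over 20 pairs), so none was treated as a duplicate.

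Genes with a mean of at least 10 were fitted as log2(value + 1), which understates changes of low genes, with limma 3.58.1 in R 4.3.3 (trend, robust) and Benjamini-Hochberg adjustment at 0.05; the script was tested on simulated data. Exact permutation tests used scipy 1.17.1. The alternatives tried were no filter or a minimum mean of 50, pseudocounts of 0.5 and 8, TMM and quantile scaling, plain limma, sample weights, edgeR 4.0.16, DESeq2 1.42.0, column numbers as covariate and each library left out; fits within column numbers and a block on shared ones were added after seeing the data. Named genes were all changed members, members fixed by role, copies of changed members and the 4 list genes of lowest p; 8 increases and 8 decreases at most were given by library. Members and lists were chosen with earlier results of these data known. The shares of own words used words of 31 bases.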

Additional observations from a re-analysis of the deposited data

Results flagged for a closer look

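Each member was examined in each group for a library that stands far from the other 4, by the gap to its nearest neighbour relative to the group's range (Dixon's ratio above 0.710). Of 130 such groups 9 had one, and chance gives about 1 in 20. In Sox11 3, Rab33a was at 1299 and Rab6b at 46639 normalized counts, both above the other Sox11 libraries, and Rab39 was at 56.3, below them. In Sox11 7, Rab33b (1682), Rab18 (7263) and Rab10 (10773) were above the other Sox11 libraries. Rab13 was at 211 in Sox11 6, below the other Sox11 libraries. Rab5a was at 5636 in GFP 4, above the other GFP libraries, and Rab5b at 6008 in GFP 3, below them. Rab33a stayed past the threshold without Sox11 3 and the Rab5a call was lost without GFP 4. The cause of these values was not tested.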

How the results depend on the processing

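The 3 members higher and 16 lower became 3 and 10 without a filter on low values, 6 and 11 with quantile normalization and 6 and 18 with DESeq2; of the 19 members, 18 passed in edgeR and DESeq2 as well. Leaving out 1 library gave 12 to 19 members changed, 3 to 4 higher and 9 to 16 lower, with 2487 to 3285 of all genes. Within libraries numbered 1 to 3 the counts were 5 changed, 1 higher and 4 lower with 1013 genes in all, a fit on fewer libraries, and within 4 to 7 they were 15, 2 and 13 with 2583, against 19, 3, 16 and 3234. Estimated sample weights gave 23 members and 4227 genes, and column numbers as covariate 20 and 4048. The cause of these moves was not tested. Over the 21 alternatives other than the fits on some column numbers, 7 of the 19 lost the call in at least 1, 8 others passed in at least 1, and no called member changed sign. Column numbers 1, 3 and 6 occur in both groups. A fit on those 6 libraries with the number as a replicate block, added after seeing the data, called 42 genes and 0 members, 0 higher and 0 lower (limma; 16 members, 12 of them lower, at an unadjusted p under 0.05). Without the block they gave 603 genes and 3 members, 1 higher and 2 lower. The labels tie these numbers to nothing shared, the same-numbered libraries' deviations from their group means correlated at 0.10, 0.07 and 0.48 across genes, and among the 3 numbers only those of number 6 correlated best with each other. At 5 libraries a group, changes of the size of Rab35 (log2 -0.13) sit at the limit of what passes. The low members Rab20, Rab38, Rab43, Rab7b, Rab11fip1 and Rab37 have intervals wider than 1 on the log2 scale, and of these Rab37 was called.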
